A study of Mus musculus with 8 samples.

Results

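Integrins are receptors of 1 α and 1 β chain that bind the extracellular matrix outside the cell and adaptor proteins of the actin cytoskeleton inside it. The results concern 10 mouse integrin subunit genes among the 56980 gene IDs of the deposited count table. They are the α genes Itga8, Itgav, Itga6, Itga9, Itga7 and Itga3 and the β genes Itgb1, Itgb8, Itgb5 and Itgb3. Itga8 was chosen by its measured LG against HG difference in these libraries, paired by number, and the other 9 as further integrin subunits of the same table. For these 10 genes that contrast is therefore given as a description with no p-value. Where a fit over all genes called one of them, the call is counted beside the share of all genes called, and nothing is read from it. All 10 were among the 18905 genes that passed the filter on low counts.

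The cells were oligodendrocyte progenitors, the dividing precursors of myelinating cells, from the cortex of wild-type C57BL/6 pups of either sex aged 6 to 8 days, immunopanned on an antibody to PDGFRα. They were grown on poly-D-lysine, a coating with no matrix protein, and both groups received 10 ng/mL PDGF-AA throughout. High glucose (HG, 4 libraries) was 25 mM. Low glucose (LG, 4 libraries) was reached by medium changes, with 12.5 mM after day 1, then 5 mM after day 2 and finally 2.5 mM after day 3. Both groups were harvested on day 5. Growth factor bFGF (20 ng/mL during expansion) had been washed out in both. The sample descriptions of libraries numbered 1 and 2 begin with the same code in both groups, and those of numbers 3 and 4 with a code each. It is read here as a preparation code, although the labels speak of independent preparations. On that reading 4 libraries a group stand for 3 preparations. The number of pups behind each is not stated, and p-values measure only the spread between these libraries.

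A cell's set of integrins follows from which α and β chains it makes. The β1 chain pairs with most α chains, α8 among them, while αv also pairs with β3, β5 and β8. α8β1 and the αv integrins recognise the Arg-Gly-Asp motif of ligands such as fibronectin, vitronectin, osteopontin and, for α8β1, nephronectin. α3, α6 and α7 form laminin receptors, and α9β1 binds tenascin-C. In the oligodendrocyte lineage α6β1 is known as the laminin receptor that acts with the kinase Fyn in survival and myelination, and αv integrins are known from progenitor migration and division. αvβ8 is also known for activating latent TGFβ.

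Itga8 (ENSMUSG00000026768) lies on the minus strand of GRCm38 chromosome 2 at 12106632 to 12301922, and Itgav (ENSMUSG00000027087) on the plus strand of the same chromosome at 83724397 to 83806916. These are the 2 subunits whose LG libraries all lay below their HG libraries, and their promoters are shown for that reason. RefSeq promoters of GRCm38.p6, from 250 bases before to 50 bases after the transcript start, were found for 7 of the 10 genes. That of Itga8 is chr2:12301895-12302194 (minus strand) and that of Itgav is chr2:83724147-83724446 (plus strand). Capitals mark a GC box, and the letters are written 5′ to 3′:
Itga8: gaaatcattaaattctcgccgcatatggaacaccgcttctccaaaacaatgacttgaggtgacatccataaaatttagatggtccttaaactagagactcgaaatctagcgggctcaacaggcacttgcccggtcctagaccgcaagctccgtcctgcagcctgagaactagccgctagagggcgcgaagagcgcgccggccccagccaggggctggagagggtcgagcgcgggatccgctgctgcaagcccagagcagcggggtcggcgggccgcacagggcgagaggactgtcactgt
Itgav: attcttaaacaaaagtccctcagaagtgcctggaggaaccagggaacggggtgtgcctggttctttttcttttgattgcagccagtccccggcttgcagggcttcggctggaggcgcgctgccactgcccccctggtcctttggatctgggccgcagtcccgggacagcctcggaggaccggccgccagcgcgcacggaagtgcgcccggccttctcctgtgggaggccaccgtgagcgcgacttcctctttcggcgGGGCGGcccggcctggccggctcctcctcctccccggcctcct
Both strands were searched for the GC box GGGCGG, the CCAAT box CCAAT, the TATA box TATAAA and the E-box CACGTG. None of the 4 is in the Itga8 window, so it is in lower case throughout. The Itgav window holds 1 GC box, 7 bases after the start. Among 32851 promoters of the same length, 35.7% hold the GC box, 37.4% the CCAAT box, 13.6% the TATA box and 7.15% the E-box. The Itga8 window has 23 CpG dinucleotides and the Itgav window 24, against a median of 7 over all promoters. These letters show that both promoters are rich in CpG and share none of the 4 motifs. They do not bear on which factors act there.

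HG libraries held 50864130 to 61915909 counts and LG libraries 53869166 to 65733928. These totals exceed the number of paired reads that the labels give, and whether mates were counted singly is not stated. All 10 progenitor markers averaged above 1 CPM (the count relative to the library total, scaled by TMM), and their sum was 8889 to 12172 CPM in HG libraries and 9290 to 12385 CPM in LG libraries. The most abundant was Ptprz1, at 2497 CPM over the 8 libraries. Neuronal markers summed to 1019 to 1338 CPM, with 1 of 8 under 1 CPM and Map2 highest at 875 CPM. Oligodendrocyte markers summed to 526 to 807 CPM, with 3 of 9 under 1 CPM and Cnp highest at 476 CPM. Of 9 microglial markers 7 had a mean under 1 CPM, as did 5 of 7 endothelial, 6 of 9 mural and 7 of 9 fibroblast markers. The most abundant of these were Cd68 (1.19 CPM), Vwf (3.57 CPM), Notch3 (23.9 CPM) and Fbln1 (34.6 CPM). 

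Itga8 was lower in every LG library than in any HG library. It stood at 48.1, 46.1, 49.2 and 57.6 CPM in HG libraries 1 to 4 and at 26.8, 26.3, 32.1 and 39.6 CPM in the LG libraries of the same numbers. The means were 50.2 ± 5.07 and 31.2 ± 6.18 CPM (SD, n = 4 each). The log2 fold change, LG minus HG, was -0.69 (SE 0.14) without a block and -0.70 (SE 0.070) with the replicate number as a block, a ratio of 0.616. Itga8 counts ran from 1416 to 3394 per library, so counting error was small against these differences. In bulk libraries a lower share of cells that express a gene and less RNA per cell cannot be told apart.

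The difference had the same sign in the 4 pairs. On the log2 CPM scale it was -0.84 in pair 1, -0.81 in pair 2, -0.61 in pair 3 and -0.54 in pair 4. Over all tested genes, 1.48% had a blocked log2 fold change as low as that of Itga8 or lower. The pairs of the shared preparation code gave the largest differences and were nearly equal to each other. Over the 21 fits tried, the log2 fold change ran from -0.82 without LG replicate 4 to -0.61 without LG replicate 2.

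Itgav, the αv gene, had the other pair of groups that did not overlap. It stood at 187, 193, 178 and 192 CPM in HG and at 140, 166, 146 and 177 CPM in LG. The means were 188 ± 6.71 and 157 ± 17.3 CPM (SD, n = 4 each), and the log2 fold change was -0.25 without and -0.26 with the block. The highest LG library, number 4, lay just under the lowest HG library, number 3. With offsets for GC content and transcript length as well as the block, Itgav was at -0.18 and Itga8 at -0.64.

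Non-overlapping groups with LG lower were thus found for 2 of 10 subunits, against 1.82% of all tested genes. With LG higher there were 0 of 10, against 1.07%. Lower in LG in 4 of 4 pairs were the same 2 subunits, against 11.0% of tested genes. Higher in 4 of 4 pairs were Itga7, Itga9 and Itgb5, against 10.8%. Since the set was named from this contrast, these shares describe it and do not test it.

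**Figure D1:**
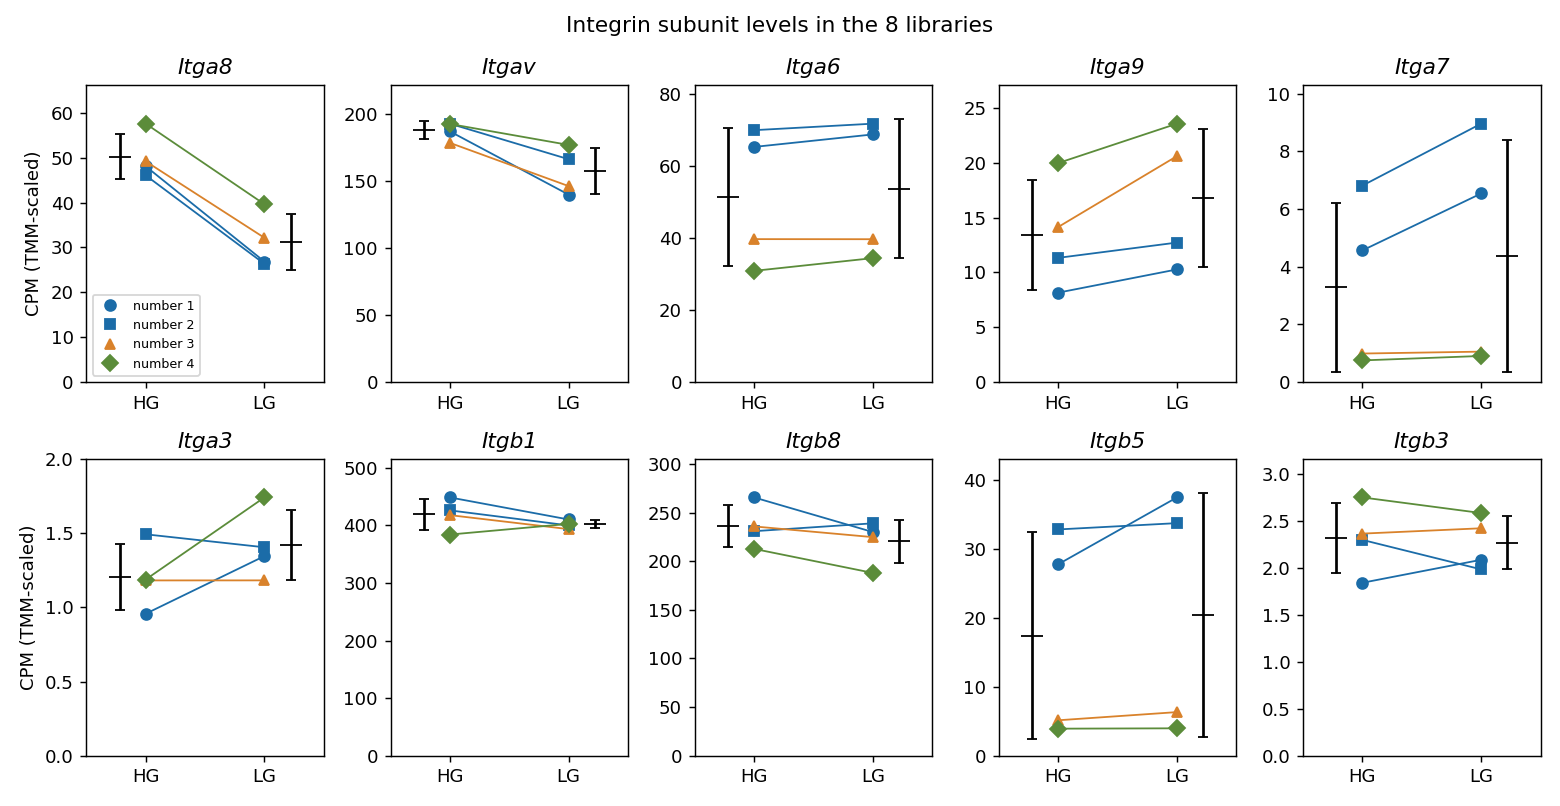
CPM (vertical axis, from 0) of the 10 integrin subunits in HG and LG, with lines joining libraries of the same number, colours for the 3 preparations, and black marks for the mean and SD of 4 libraries. Itga8 falls along all 4 lines, from 46.1 to 57.6 CPM in HG to 26.3 to 39.6 CPM in LG, while Itga7 and Itgb5 part by preparation.

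No subunit was among genes called without a block, where edgeR's quasi-likelihood test called 0% of the 18905 genes. In that fit 745 genes, or 3.94%, had an unadjusted p under 0.05, and DESeq2 called 4 genes, Itga8 among them. With the replicate block 0.418% of genes were called (0.307% lower, 0.111% higher), and Itga8 was the 1 subunit of 10. With GC and length offsets as well 1.31% were called, and again Itga8 alone of the 10. Itga8 was called in each of the 8 fits of 21 that called any gene. These calls use the contrast that chose the gene and add no support to it.

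Of the laminin-binding α chains, Itga6 stood at 65.3, 70.0, 39.7 and 30.9 CPM in HG and at 68.8, 71.8, 39.7 and 34.4 CPM in LG. The libraries of numbers 1 and 2 were the high ones in both groups, and the pair differences averaged 0.07 ± 0.07 (log2, SD over 4 pairs). Itga7 was far less abundant, at 4.56, 6.81, 0.985 and 0.747 CPM in HG and 6.54, 8.96, 1.05 and 0.900 CPM in LG, with pair differences of 0.31 ± 0.18. Itga3 had only 52 to 118 counts per library, with HG libraries averaging 1.21 ± 0.220 CPM and LG libraries 1.42 ± 0.235 CPM (SD, n = 4), and its pair differences, 0.23 ± 0.32, were smaller than their spread.

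Itga9, the tenascin-C receptor chain, stood at 8.15, 11.3, 14.2 and 20.0 CPM in HG and at 10.3, 12.7, 20.6 and 23.6 CPM in LG. It was higher in LG in each pair, by 0.32 ± 0.16 (log2, SD over 4 pairs), while the groups overlapped. Number 4 was highest and number 1 lowest in both groups.

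Among the β chains, Itgb1, the partner of α8, stood at 449, 426, 418 and 384 CPM in HG and at 410, 400, 393 and 403 CPM in LG. Its log2 fold change with the block was -0.06 (SE 0.061), close to the 0.00 median of all genes. Whether the 2 fold changes differ was not tested, since Itga8 was chosen for its value.

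Of the β partners of αv, Itgb8 averaged 236 ± 21.9 CPM in HG libraries and 220.4 ± 22.4 CPM in LG libraries (SD, n = 4). Its log2 fold change was -0.10 with the block and 0.03 with the offsets added. Itgb5 was at 27.8, 32.8, 5.14 and 3.92 CPM in HG and 37.5, 33.8, 6.32 and 3.97 CPM in LG, a difference of 0.20 ± 0.20 over the 4 pairs (log2). Itgb3 had 100 to 175 counts per library and means of 2.31 ± 0.373 and 2.27 ± 0.281 CPM. None of these had groups that did not overlap.

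Levels were also compared between genes per kilobase of exon (RPKM). This is CPM divided by the exon length of all isoforms joined, which understates genes with long rare isoforms. The joined exons of Itga6 span 9025 bases against 4310 in its longest transcript, and those of Itga7 8092 against 4020. For Itga8 these lengths are 7368 and 5812, and for Itgav 10744 and 7054. The order of close levels and the shares of the α genes thus depend on the length used. Itgb1 was by far the most abundant, at 101 ± 4.99 RPKM over the 8 libraries (SD), followed by Itgb8 at 20.6 ± 2.01 and Itgav at 16.0 ± 1.89 RPKM. Itgb8 lay above Itgav in 8 of 8 libraries, although their ranges over libraries overlapped. Itga6 at 5.82 ± 1.98, Itga8 at 5.53 ± 1.55 and Itgb5 at 5.32 ± 4.30 RPKM could not be ordered beyond their spread. Itga9 had the next lower mean, 1.96 ± 0.727 RPKM, but lay above Itgb5 in the 4 libraries of numbers 3 and 4. Itga7 at 0.472 ± 0.410 and Itgb3 at 0.388 ± 0.0519 RPKM overlapped as well. Itga3 had the lowest mean, 0.230 ± 0.0420 RPKM, although Itga7 lay below it in the 4 libraries of numbers 3 and 4.

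**Figure D2:**
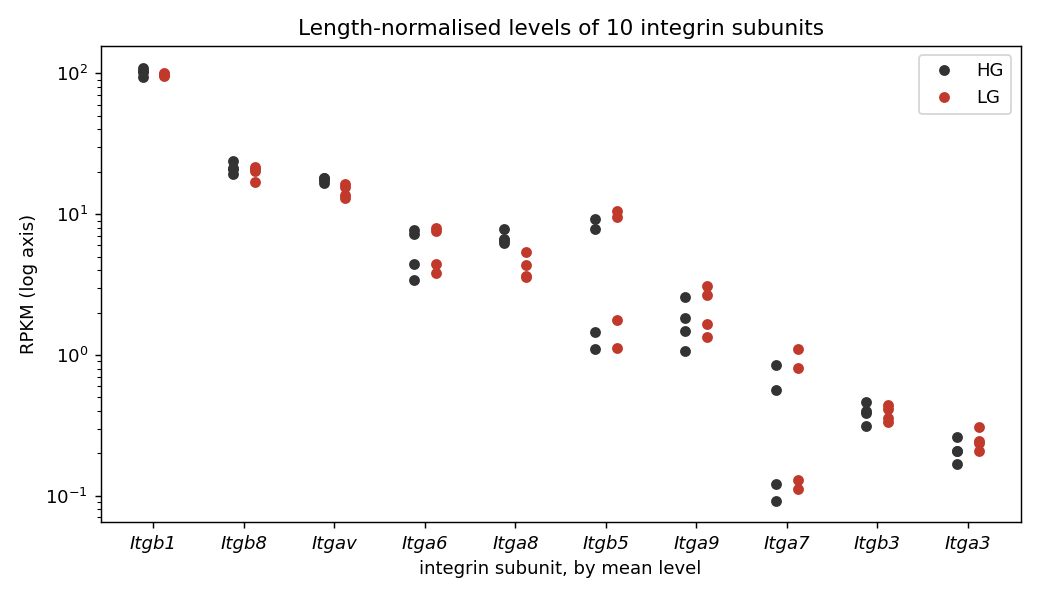
RPKM on a log axis for each subunit, ordered by mean level, with 1 point per library (4 HG, 4 LG). Itgb1 is highest with 94.1 to 110 RPKM, and the 8 libraries of Itgb5 spread from 1.10 to 10.6 RPKM.

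Of the summed RPKM of the 6 α genes, Itgav made up 54.1 ± 1.99% in HG and 52.6 ± 3.25% in LG (SD, n = 4 each). Itga8 made up 21.2 ± 2.77% in HG, with a range of 18.1 to 24.4%, and 15.3 ± 3.04% in LG, with a range of 11.9 to 18.5%. These ranges overlapped, unlike those of the level itself. Itgb1 made up 79.6 ± 2.51% of the summed RPKM of the 4 β genes in HG and 79.2 ± 4.10% in LG.

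Preparations were compared by a contrast that the choice of subunits did not use, in which each preparation holds as many HG as LG libraries. The test set the 3 codes against the spread of libraries within a code, which may share animals, so it speaks of these preparations only. Of the subunits 5 of 10 differed, Itgb5, Itga7, Itga6, Itga9 and Itga8, against 13.7% of all tested genes. Itgb5 had the largest contrast, with a mean of 33.0 CPM in the preparation of numbers 1 and 2 (4 libraries), 5.73 CPM in that of number 3 and 3.95 CPM in that of number 4 (2 libraries each; edgeR adjusted p = 1.03e-07). Itga7 had the same order, at 6.72, 1.02 and 0.824 CPM (edgeR adjusted p = 8.61e-06), and so did Itga6, at 69.0, 39.7 and 32.6 CPM (edgeR adjusted p = 1.04e-05). Each of these 3 genes was higher in every library of numbers 1 and 2 than in any of numbers 3 and 4.

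Itga9 ran the other way, at 10.6, 17.4 and 21.8 CPM in the same order (edgeR adjusted p = 0.00166). Itga8 did too, by less, at 36.8, 40.7 and 48.6 CPM (edgeR adjusted p = 0.0205). Its call ended without the glucose term (adjusted p = 0.622), without LG replicate 2 (0.0625) and without LG replicate 4 (0.161). It held in the other 11 of 14 settings by edgeR or DESeq2, where the lowest adjusted p was 0.00359. The other 4 called subunits passed in 14 of 14 settings. Itgav, Itgb1, Itgb3, Itgb8 and Itga3 did not pass in any (main adjusted p = 0.431, 0.69, 0.364, 0.109 and 0.792 by edgeR).

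Astrocyte markers moved with the preparation: the 8 listed genes summed to 1742 to 1922 CPM in libraries numbered 1 and 2 and to 662 to 833 CPM in numbers 3 and 4. Slc1a3 was the most abundant, at 435 CPM over the 8 libraries, and none was at 0 in all libraries. The 9 mural markers summed to 32.3 to 52.2 CPM and 9.51 to 11.5 CPM in the same libraries. Most of that sum was 1 gene, Notch3, at 23.9 CPM over the 8 libraries, with Pdgfrb next at 2.38 CPM. Progenitor markers separated the other way, with sums of 8889 to 9929 CPM in numbers 1 and 2 and 11683 to 12385 CPM in numbers 3 and 4. The sum of the 9 oligodendrocyte markers averaged 549, 681 and 782 CPM in the preparations of numbers 1 and 2, 3 and 4, the order of Itga9 and Itga8. Most of that sum was Cnp, at 476 CPM over the 8 libraries, with Mbp next at 63.0 CPM. The part of these cell types in the differences of Itgb5, Itga7, Itga6, Itga9 and Itga8 was not tested. Between glucose conditions the astrocyte and mural sums overlapped, with pair differences of -0.03 ± 0.14 (astrocyte) and 0.17 ± 0.33 (mural) on the log2 scale. Fibroblast markers summed to 29.3 to 42.6 CPM in HG and 37.3 to 40.2 CPM in LG, mostly from Fbln1 (34.6 CPM, with Pdgfrl next at 2.27 CPM). Endothelial markers summed to 5.06 to 6.70 CPM in HG and 6.04 to 7.41 CPM in LG, higher in LG in 4 of 4 pairs. None of the 8 marker sums had groups that did not overlap, and their part in the difference of Itga8 was not tested.

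**Figure D3:**
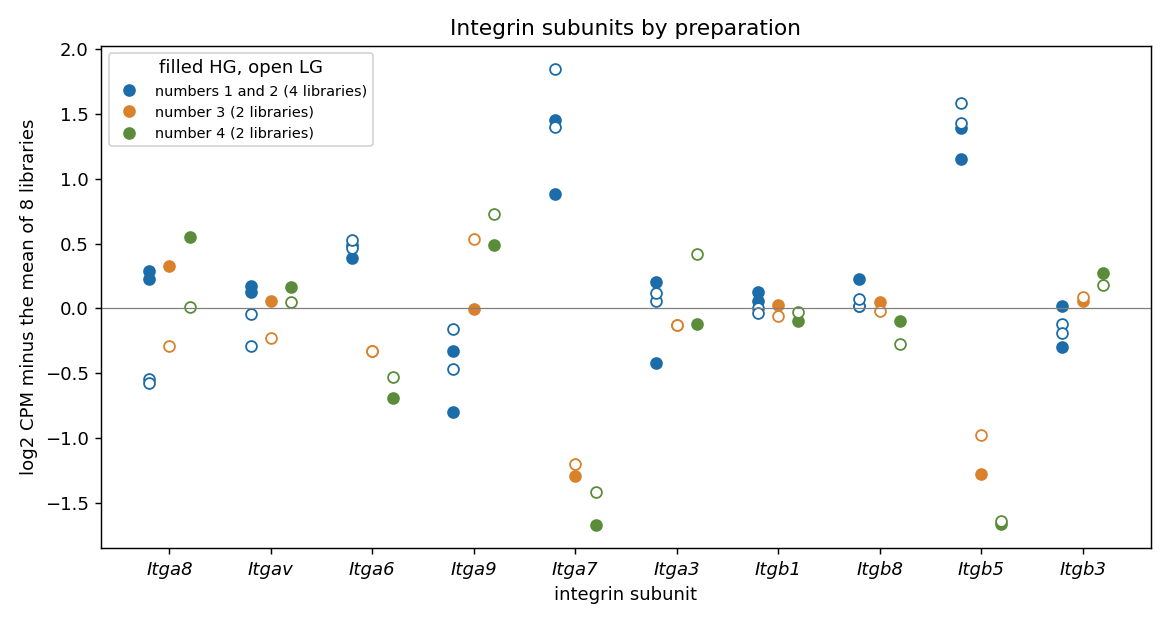
log2 CPM minus the mean of the 8 libraries for each subunit, coloured by preparation, with filled points for HG and open points for LG. Itgb5 and Itga7 part numbers 1 and 2 from the rest by 2.52 to 3.04 log2 units between preparation means, while the preparation means of Itgb1 lie within 0.10.

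Other integrin subunits were mostly scarce. Of 16 further subunit genes 9 passed the filter, and the highest mean per kilobase was that of Itga2, 0.580 RPKM over the 8 libraries. The leukocyte chains Itgam, Itgb2, Itgax, Itgad and Itgal had at most 5 counts in any library. None of the 9 was called in LG against HG with or without the block. Fold changes were negative for 7 of the 9, against 9189 of the 18905 tested genes. The median over the 9 was -0.16, against 0.01 over all genes. Itgb4, at 0.226 CPM, was at -0.76, the collagen receptor chain Itga1 at -0.57 (HG mean 4.85 CPM, LG mean 3.26 CPM; edgeR adjusted p = 0.0596 with the block) and Itgae at -0.47. Itga1 was lower in LG in 4 of 4 pairs. Between preparations 3 of the 9 differed, against 13.7% of all tested genes: Itga2 (edgeR adjusted p = 3.18e-06), Itga1 (0.000511) and Itga4 (0.00762), the last named after its value was seen. Itga2, a collagen receptor chain, averaged 7.29 CPM in the preparation of numbers 1 and 2 and 1.08 and 0.891 CPM in those of numbers 3 and 4.

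No ligand of these receptors was called between conditions without the block or with it. Nephronectin (Npnt), the ligand of α8β1, averaged 3.14 ± 0.493 CPM over HG libraries and 3.16 ± 0.554 CPM over LG libraries (SD, n = 4). Fibronectin (Fn1) was at 4.53 ± 1.76 and 4.59 ± 1.36 CPM, and tenascin-C (Tnc) at 32.4 ± 5.16 and 29.8 ± 5.82 CPM. Osteopontin (Spp1) was near the limit of detection, with means of 0.372 and 0.221 CPM, and vitronectin (Vtn) had at most 1 count per library and was not tested. Of 36 ligand genes 29 were tested, and the median of their log2 fold changes was 0.05.

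With the block and the offsets 1 ligand passed among all genes. Lama4, a laminin α chain, fell by 0.39 (edgeR adjusted p = 0.024), from a mean of 42.9 CPM in HG to 33.5 CPM in LG, and was lower in 4 of 4 pairs. It had adjusted p = 0.0647 with the block alone by edgeR, and it was named after its value was seen. In that fit 1.03% of all genes were called lower. The basement membrane genes Nid1 and Col4a2 were at 0.51 and 0.38 and were not called.

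Between preparations 17 of the 29 ligands differed, against 13.7% of all tested genes, 12 of them higher and 5 lower in numbers 1 and 2. Vcam1, the ligand of α4β1, averaged 51.3 CPM in the preparation of numbers 1 and 2 and 6.57 and 4.91 CPM in those of numbers 3 and 4 (edgeR adjusted p = 1.3e-06). Lamb2, a laminin β chain, averaged 18.1, 2.33 and 1.90 CPM (2.41e-07). Both thus had the order of Itgb5, Itga7 and Itga6.

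Adaptors and kinases that act on integrin tails ranged widely in level, from Fermt1 with at most 1 count per library to Fyn. Fyn stood at 685 CPM over the 8 libraries and had a log2 fold change of 0.06. Of 36 genes 34 were tested, 0 were called with or without the block, and their median was 0.07 (log2). Parvb, a parvin that binds integrin-linked kinase, was at 0.37, Lims2, which encodes PINCH-2 of the same complex, at 0.33, and the tensin gene Tns2 at 0.31. With the offsets added to the block Lims2 (0.26, edgeR adjusted p = 0.0347) and Kank1 (0.24, 0.0397), a talin-binding protein gene, rose, against 0.275% of genes called higher. Kank1 was named after its value was seen. Both were higher in 4 of 4 pairs, and neither passed with the block alone (0.0608 and 0.0523). Between preparations 12 of the 34 genes differed, against 13.7% of all tested genes, and Tns1 and Parvb had the largest F.

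Of 11 membrane partners of integrins, mostly tetraspanins, 10 were tested and 0 were called with or without the block. Cd82, a tetraspanin gene, averaged 2.79 CPM over HG libraries and 4.44 CPM over LG libraries, with a log2 fold change of 0.67 and groups that overlapped. It was higher in 4 of 4 pairs and passed with the block and offsets (edgeR adjusted p = 0.0464) but not with the block alone (0.0557). Cav1 and Cd9 were at 0.31 and 0.22 and also higher in 4 of 4 pairs, without passing. The median of the 10 was 0.07. Between preparations 5 of the 10 differed, against 13.7% of all tested genes, and all 5 were lower in numbers 1 and 2. Cd82 averaged 2.64, 3.65 and 5.54 CPM in the preparations of numbers 1 and 2, 3 and 4, and the tetraspanin gene Tspan2 25.5, 32.7 and 37.0 CPM (edgeR adjusted p = 0.00258 and 0.00536).

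Among 10 other matrix receptors 0 were called between conditions, with a median of 0.06. The syndecan genes Sdc4, Sdc3 and Sdc1 were at 0.25, 0.17 and -0.14. Between preparations 5 of the 10 differed, against 13.7% of all tested genes, 3 of them higher and 2 lower in numbers 1 and 2. The 2 lower were Cspg4 and Bcam, named after their values were seen. Sdc4 averaged 9.42, 1.63 and 1.07 CPM and the hyaluronan receptor gene Cd44 10.7, 2.86 and 2.80 CPM in the preparations of numbers 1 and 2, 3 and 4 (edgeR adjusted p = 1.3e-06 and 2.3e-06).

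**Figure D4:**
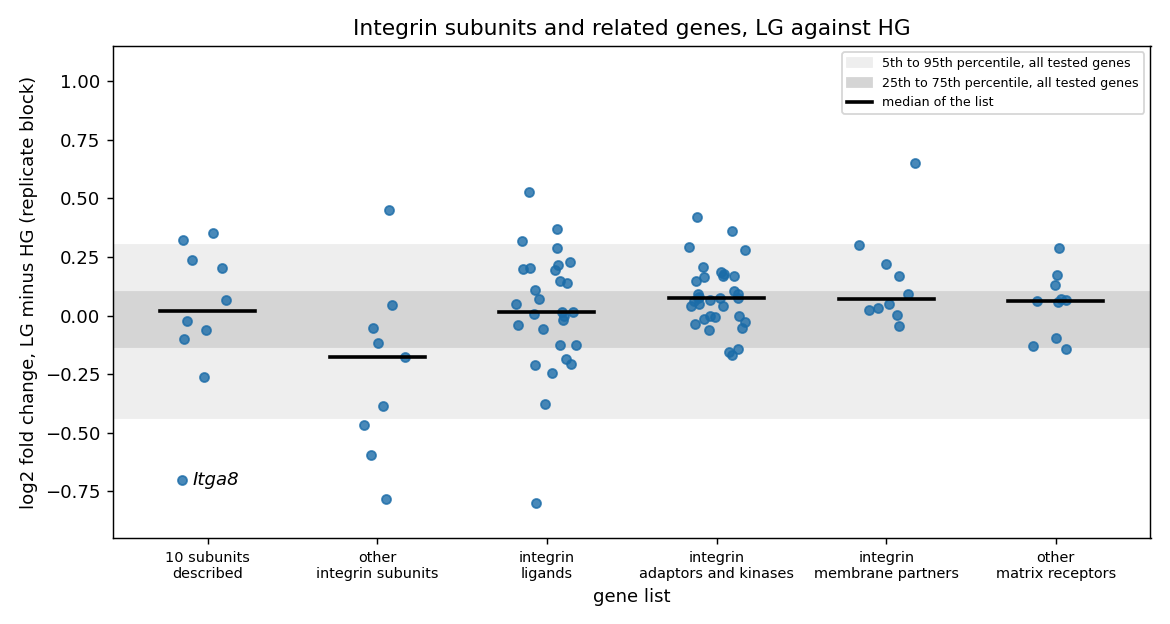
log2 fold change (LG minus HG, with the replicate block) of each tested gene in the 10 subunits and 5 related lists, with the list median as a bar and grey bands for all tested genes. Itga8 at -0.70 lies below the 5th percentile of all genes (-0.44), and the list medians lie between -0.18 and 0.07.

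The genes most like Itga8 were those with the smallest root mean square difference from it in centred log2 CPM over the 8 libraries, a measure that includes the glucose difference. They were Inpp4b (0.12), a phosphoinositide phosphatase gene, Gm43457 (0.15), Creb5 (0.16), a transcription factor gene of the CREB family, Ctf1 (0.16), which encodes cardiotrophin 1, and Hist1h4k (0.16), a histone H4 gene. Inpp4b ran from 15.8 to 19.6 CPM in HG and from 9.86 to 14.1 CPM in LG, so its groups did not overlap either. All 5 were lower in LG in 4 of 4 pairs. Gm43457, Ctf1 and Hist1h4k averaged 1.25, 1.19 and 1.69 CPM, and histone H4 genes are near-identical copies whose counts are uncertain. Of the other subunits Itgav ranked nearest to Itga8, at 185 of 18904 genes, followed by Itgb3 at 2055.

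Strand and overlap limit a few of these values. In GENCODE M21 an antisense gene, E030013I19Rik, overlaps 372 exon bases of Itga8 and had 24 to 66 counts per library, and Gm13684 overlaps 634 bases of Itgav and had 3 to 27. Both counts are small against those of the integrin genes. Of the exon bases of Lims2 6.14% are covered by other genes, with Gpr17, a listed progenitor marker, as the largest overlap. Its effect on the Lims2 counts was not tested.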

How the data were processed

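RNA was measured in 8 libraries from 100 ng of total RNA each, sequenced as paired reads of 150 bp per the labels' protocols. The authors deposited whole-number counts for each Ensembl gene ID, not normalized. Per the submitters' processing notes, the tools included CASAVA 1.8.2, featureCounts, STAR and DESeq2 and the build was mm10. The annotation release, strand setting, treatment of multiply matching reads and whether pairs or mates were counted were not given in the sources used here. Of 56980 IDs 52125 had a symbol in GENCODE M21 (GRCm38), which also gave positions, lengths and GC content (known for 97.5% of tested genes).

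Counts were tested with edgeR 4.0.16 in R 4.3.3 (filterByExpr, TMM, robust quasi-likelihood fit, Benjamini-Hochberg adjustment over all genes, threshold 0.05). LG was compared with HG without a block, and the 3 preparation codes were compared by an F test with glucose as a term. log2 CPM used a prior count of 2. SE is the absolute log2 fold change divided by the square root of F. DESeq2 1.42.0, offsets from mgcv 1.9.3 and left-out libraries were among the alternatives. Tests were also tried on simulated counts, whose outcome is not given here and is not used as support.

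Same-numbered libraries were taken as pairs: the preparation codes match across groups, and deviations from the group means correlated at r from 0.448 to 0.625 across genes, with each of the 8 libraries nearest its own number. Replicate libraries differed beyond sampling noise (lowest chi-square 19.0 per degree of freedom), and each was counted as its own sample. Libraries of the same preparation could also differ by this much, so the value does not show that those sharing a preparation code are independent.

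The members, lists and tests were chosen with earlier results of these data known. Named genes were the 10 subunits and, per list, the 3 with the largest fold change, the 2 with the largest F between preparations, any called with the block, and Npnt, Fn1, Vtn, Tnc and Spp1. The 5 genes nearest Itga8 were added, as was the most abundant marker of each cell type.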

Additional observations from a re-analysis of the deposited data

How the results depend on the processing

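In LG against HG no gene was called without a block by edgeR, and this held with other size factors, no filter, GC and length offsets alone and any single library left out. DESeq2 called 4 genes. The replicate block called 79, the block with offsets 247, the preparation code as a block 1 (Itga8) and blocked sums per preparation 17. With the replicate block the count ran from 0 to 148 when a pair was left out: leaving out pair 1 gave 6, pair 2 gave 0, pair 3 gave 39 and pair 4 gave 148, where Itgav was also called. Genes that differ between preparations numbered 2585, and 1575 to 2162 with 1 library left out: 1626 without HG replicate 3, 1618 without HG replicate 4 and 1575 without LG replicate 3. Of the 200 fold changes of the 10 subunits under alternatives, 169 moved by less than the SD over pairs and 31 by more, all for Itga6, Itga7, Itga9, Itgb5 and Itgb8. Those of Itga6, Itga7, Itgb3, Itgb5 and Itgb8 took both signs, and the cause was not tested. Itga7 ran from -0.21 to 1.09 and Itgb5 from -0.24 to 0.76, both highest without HG replicate 2. These extremes came from fits without a block and with 1 library left out. With the replicate block and a pair left out, Itga7 ran from 0.28 to 0.42. Itgb5 then ran from 0.11 to 0.27 and Itga6 from 0.04 to 0.09, while Itgb3 still took both signs, from -0.09 to 0.04. With 4 libraries from 3 preparations a group, differences as small as that of Itgb1 could not be told from the spread.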

Other observations

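Ilk, the gene of integrin-linked kinase, a core adaptor of β1 tails that most cells express, had only 7 to 18 counts per library and was not tested. In GENCODE M21 other genes cover 89.7% of its exon bases, and Taf10, the gene with the largest overlap, had 2542 to 3770 counts. Itgam, the αM chain of microglia and other leukocytes, was at 0 in the 8 libraries, and 68.7% of its exon bases are covered, mostly by Gm49368, which was also at 0. How the authors' counting assigned reads in such overlaps is not given in the sources used here, so neither value shows that the gene was silent. Both were singled out after their values were seen. In 20 groups of 4 libraries, 10 subunits in 2 conditions, 0 had a library flagged as far from the other 3. An expected count of 1, at 1 in 20, would need independent groups. The 10 subunits share the same 8 libraries and each group mixes preparations, so nothing is read from this count.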
